A study of Mus musculus with 115 samples.

Results

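The expression of 10 genes of the WNT pathway was followed across the granulosa, luteal, stromal and surface epithelial cells of the mouse ovary: the ligands Wnt4, Wnt5a and Wnt6, the ligand enhancer Rspo1, the secreted antagonists Sfrp1, Sfrp2 and Sfrp4, the receptor Fzd1, and the intracellular genes Ctnnb1 and Axin2. The members were chosen by name, as 10 of the 24484 gene rows of a table of unique molecular identifier (UMI) counts in single cells, each UMI standing for one captured transcript. The study compared ovaries of wild type mice with those of 2 obese lines: ob/ob mice, which lack leptin, and db/db mice, which lack a working leptin receptor. Cells were freed with collagenase IV and picked singly with needles under a stereomicroscope, so the number of cells of a type reflects picking as well as tissue. The samples used were 92 libraries of somatic cells, 31 from wild type mice of strain C57BL/6-129Sv, 30 from db/db mice and 31 from ob/ob mice, the latter 2 of strain C57BL/6. Every difference from wild type is therefore also a difference of strain. It is also one of library number, which ran from 1 to 55 in wild type and from 82 upward in the mutants, and these cannot be told apart from genotype. The series' design text also names RD and HFD mice, and the labels name neither animal, age nor diet for a library, so whether diet differed between the groups used here is not known and the p-values here describe variation from library to library, part of which may be technical.

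WNT proteins are lipid-modified ligands that bind Frizzled receptors. In the canonical branch, binding stops a cytoplasmic complex that contains Axin from destroying β-catenin, the product of Ctnnb1, which then enters the nucleus and acts with TCF/LEF factors on targets such as Axin2, itself a negative feedback gene. R-spondins raise the number of Frizzled receptors by removing the ubiquitin ligases Znrf3 and Rnf43, and secreted frizzled-related proteins (SFRPs) bind WNT ligands or receptors outside the cell. In the ovary, Wnt4 and Rspo1 act in female sex determination and in early granulosa cells, and Sfrp4 is known from late follicles and the corpus luteum, the progesterone-secreting body that forms from a follicle after ovulation.

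After filtering, 7787 cells remained, 2501 wild type, 2604 db/db and 2682 ob/ob. Library totals over the kept cells, without spike-ins, were 2017017 to 22488226 UMIs for wild type, 2778201 to 19202518 for db/db and 4793175 to 16581125 for ob/ob. No kept cells had identical counts, and all 96 well barcodes recurred in several libraries because each library reuses them. Clusters were named from marker lists, with the WNT genes left out of the clustering, and gave 3971 granulosa-like, 1048 luteal-like, 841 stroma-like and a small group of surface epithelium-like cells. Counts were summed per library and class over libraries with at least 5 cells of the class. This left 25 libraries of wild type, 25 of db/db and 24 of ob/ob for granulosa-like cells, 4, 4 and 6 for luteal-like cells, 22, 6 and 13 for stroma-like cells, and 6 ob/ob libraries alone for surface epithelium-like cells. Values are the summed counts as CPM, the usual scaling for library size, computed within each class, and folds are log2 differences from an edgeR quasi-likelihood fit, called at a Benjamini-Hochberg adjusted p under 0.05 over all genes tested in the class.

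The members divided among the 4 classes. Sfrp2, Sfrp4, Wnt4 and Fzd1 had their highest mean level in luteal-like cells, Wnt5a, Sfrp1 and Ctnnb1 in stroma-like cells, and Wnt6, Rspo1 and Axin2 in surface epithelium-like cells. The 2 luteal antagonists stood far above their levels elsewhere, whereas Ctnnb1 was present in every class and its group means lay between 83.9 and 150.7 CPM. Axin2 moved to luteal-like cells when at least 10 cells per library were required, and Ctnnb1 to granulosa-like cells when single-cell CPM was averaged, so the order of these neighbours depends on the setting. Because scaling was done within each class, the order across classes is a description with no test.

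**Figure D1:**
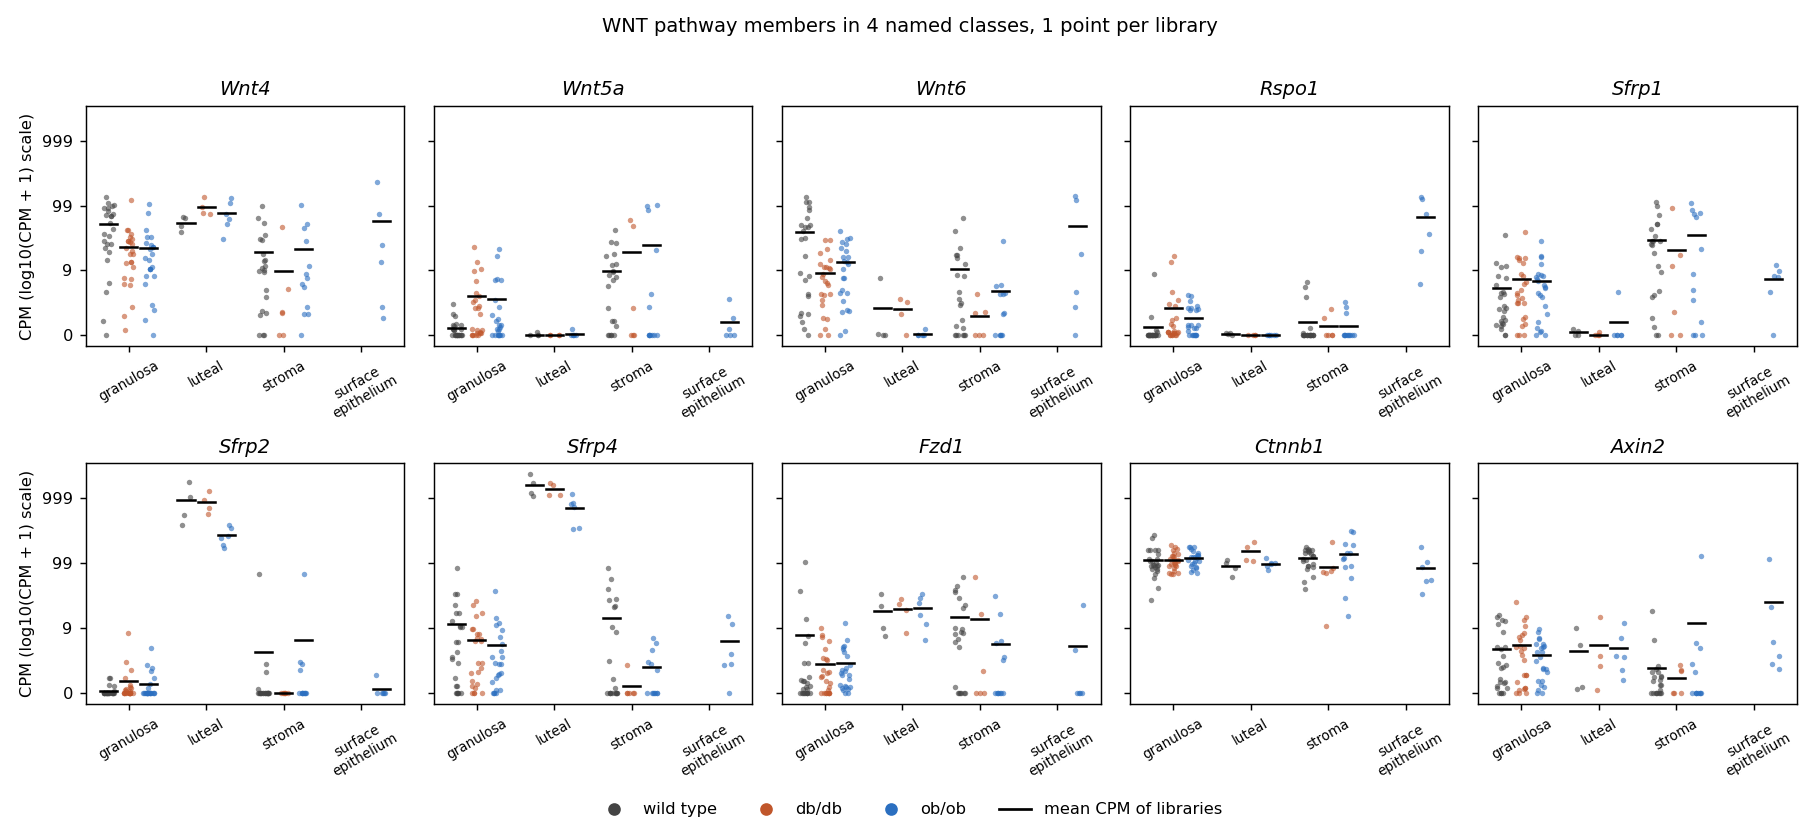
Level of the 10 members in each cell class and genotype. Each point is a library (summed UMI counts, CPM, on a log10(CPM + 1) axis) and each bar the mean CPM of its group. Sfrp2 and Sfrp4 stand high in luteal-like libraries of all genotypes, and Rspo1 in surface epithelium-like libraries. Only ob/ob libraries held at least 5 cells of that last class.

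Sfrp2, which encodes a secreted antagonist that can bind WNT ligands, was lower in ob/ob luteal-like cells than in those of both other genotypes. The 4 wild type libraries had 384, 544, 1056 and 1814 CPM, the 4 db/db libraries had 943, 577, 719 and 1311 CPM, and the 6 ob/ob libraries had 244, 190, 349, 172, 392 and 266 CPM. The ob/ob libraries all lay below the lowest db/db library, while the highest ob/ob library passed the lowest wild type library by a few CPM. Mean levels were 950 ± 644 CPM for wild type (SD, n = 4), 887 ± 320 for db/db (SD, n = 4) and 269 ± 86.9 for ob/ob (SD, n = 6). In the edgeR fit, Sfrp2 fell by 1.82 on the log2 scale in ob/ob against wild type (SE 0.32, adjusted p = 0.0021). It was higher in db/db than in ob/ob by 1.72 (SE 0.32, adjusted p = 0.0064), and the db/db minus wild type difference was -0.10 (adjusted p = 0.955). The ob/ob libraries varied less among themselves than the wild type libraries, by the size of the SD.

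Sfrp4, the other SFRP gene of the luteal cells, was also lower in ob/ob than in wild type. The wild type libraries had 1087, 1222, 1719 and 2334 CPM, the db/db libraries 1613, 1111, 1136 and 1693 CPM, and the ob/ob libraries 337, 1172, 740, 845, 347 and 816 CPM. A single ob/ob library, at 1172 CPM, reached into the range of the wild type and db/db libraries. Mean levels were 1591 ± 565 CPM for wild type (SD, n = 4), 1388 ± 308 for db/db (SD, n = 4) and 709 ± 321 for ob/ob (SD, n = 6). Sfrp4 fell by 1.17 in ob/ob against wild type (edgeR, SE 0.28, adjusted p = 0.0213). The db/db minus ob/ob difference of 0.97 (SE 0.28, adjusted p = 0.202) and the db/db minus wild type difference of -0.20 (adjusted p = 0.883) did not pass.

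Of the 10 members, 7 passed the filter on low counts in luteal-like cells. Of these, 2 were lower in ob/ob than in wild type, where 3.15% of the 11507 genes tested were called in either direction. In db/db against ob/ob 1 was higher, beside 0.487% of genes called, and in db/db against wild type 0 were called, beside 0.86%. In the latter, 2 had an unadjusted p under 0.05, and DESeq2 and limma also called 0. The median log2 difference of the tested members was 0.14 for ob/ob minus wild type, 0.11 for db/db minus wild type and 0.63 for db/db minus ob/ob, against 0.07, 0.03 and -0.03 over all genes tested. The 2 comparisons that involve ob/ob share the ob/ob libraries, and those that involve wild type share the wild type libraries.

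**Figure D2:**
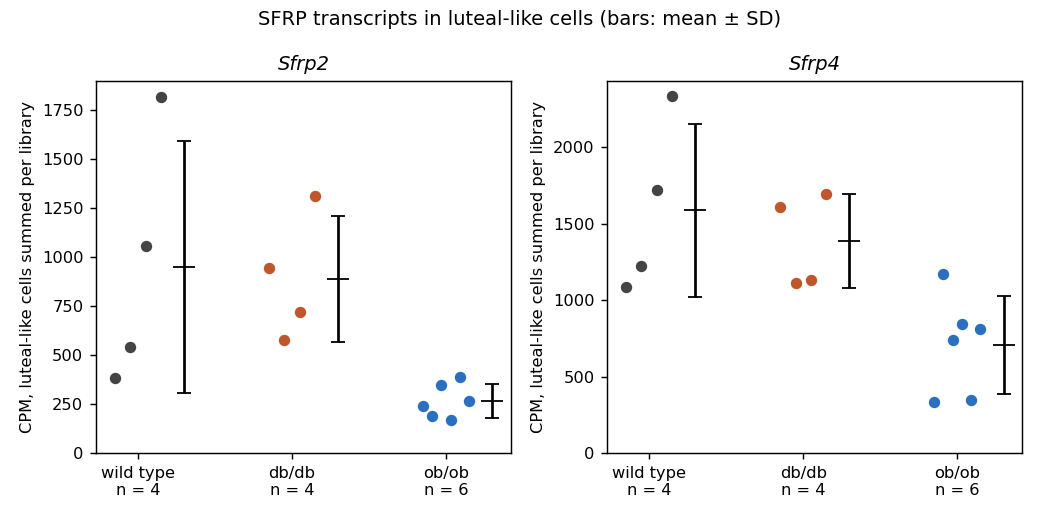
Sfrp2 and Sfrp4 in luteal-like cells by library. Points are libraries in CPM, and lines give the mean ± SD of each genotype (n = 4 wild type, 4 db/db, 6 ob/ob). The ob/ob mean lies at 269 CPM for Sfrp2 and 709 CPM for Sfrp4, below both other genotypes.

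The luteal-like class held 2 clusters, and the genotypes were unevenly spread over them: 55.9% of wild type luteal-like cells were in cluster 11, whereas 79.7% of db/db and 75.1% of ob/ob cells were in cluster 3. Within cluster 3 (701 cells), the mean Sfrp2 level was 1346 CPM in wild type, 874 in db/db and 294 in ob/ob. There Sfrp2 fell by 2.20 in ob/ob against wild type (edgeR, SE 0.29, adjusted p = 0.00024), and was 1.57 higher in db/db than in ob/ob (SE 0.29, adjusted p = 0.0072), with no overlap of libraries in either comparison. Mean Sfrp4 in cluster 3 was 1975 CPM in wild type, 1457 in db/db and 748 in ob/ob, a fall of 1.4 in ob/ob against wild type (SE 0.26, adjusted p = 0.0044). In that cluster 2 members were lower in ob/ob than in wild type (1.62% of 11217 genes called), 1 was higher in db/db than in ob/ob (0.357%), and 0 were called in db/db against wild type (0.642%; 1 at an unadjusted p under 0.05, and 0 by DESeq2). In cluster 11 (347 cells), Sfrp2 was 199 CPM in wild type, 764 for db/db and 93.4 for ob/ob, and only the difference between db/db and ob/ob passed, at 3.02 (SE 0.62, adjusted p = 0.0335). That was 1 member called (0.118% of 8459 genes), with 0 in db/db against wild type (0.118%) and 0 in ob/ob against wild type (0.0118%), where 2 and 1 had an unadjusted p under 0.05 and DESeq2 called 0. Both db/db against ob/ob calls of Sfrp2 were lost in some alternatives: in cluster 3 without db/db replicate 14 (1.29, adjusted p = 0.0743), and in cluster 11 with DESeq2's size factors (2.94, adjusted p = 0.0732), with stricter cell limits (3.13, adjusted p = 0.0602) and without any 1 of ob/ob replicates 12, 14 and 31 or db/db replicates 11 and 13 (adjusted p from 0.0769 to 0.447). The luteal-like class and its libraries coincide: 14 libraries held 1044 of the luteal-like cells, at 33.7% to 100% of their kept cells. Neighbouring library numbers could share an animal, which the labels do not say.

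Within a library, Sfrp2 and Sfrp4 were carried by a part of the luteal-like cells. The share of cells with at least 500 CPM of Sfrp2, a level chosen after the values had been seen, was 20.5%, 13.6%, 24.2% and 46.7% in the wild type libraries. It was 41.3%, 32.6%, 35.8% and 35.5% in the db/db libraries and between 7.14% and 16.7% in the ob/ob libraries. For Sfrp4 the share was 39.8% to 62.2% for wild type, 50.0% to 67.7% for db/db and 12.5% to 42.9% for ob/ob. The 10% of cells with the highest values held 51.4% to 93% of a library's Sfrp2 and 33.7% to 60.3% of its Sfrp4. The median luteal-like cell had 25.4 to 383 CPM of Sfrp2 in wild type libraries, 86.5 to 189 for db/db and 10.6 to 40.1 for ob/ob. The correlation of the 2 antagonists over the cells of a library lay between -0.24 and 0.28 in the 14 libraries, which is a description over cells that share a library.

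Both genes were also counted outside the luteal-like cells. In the unnamed cluster 20, most of whose cells came from ob/ob, 93.6% of the cells in the luteal libraries had an Sfrp4 UMI. Their pooled levels were 948 CPM of Sfrp4 and 75.8 CPM of Sfrp2, against 1103 and 590 CPM in the luteal-like cells. In the unnamed cluster 17 the pooled levels were 923.5 and 703.3 CPM. All 10 cells of the luteal libraries that lay outside clusters 3, 11, 17 and 20 also had Sfrp4 UMIs, at a median of 209 CPM, and 7 of them had Sfrp2. Of these 10, 2 had at least 500 CPM of Sfrp2, the highest 4118 CPM, a larger share than in any ob/ob luteal library, and 1 had at least 500 CPM of Sfrp4. In the 6520 cells of all other libraries, 1.81% had a UMI of Sfrp2 and 11.5% one of Sfrp4, against 89.6% and 97.1% of the luteal-like cells. With each cell thinned to 10000 UMIs, which left out 50 luteal-like and 472 other cells, these shares were 0.446% and 3.59% against 51.3% and 74.2%. Median depth was 121200 UMIs in the luteal-like cells and 71370 in the cells of the other libraries. Shares of cells with a UMI are therefore not read as shares of expressing cells here, and the genotype differences above rest on summed levels.

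**Figure D3:**
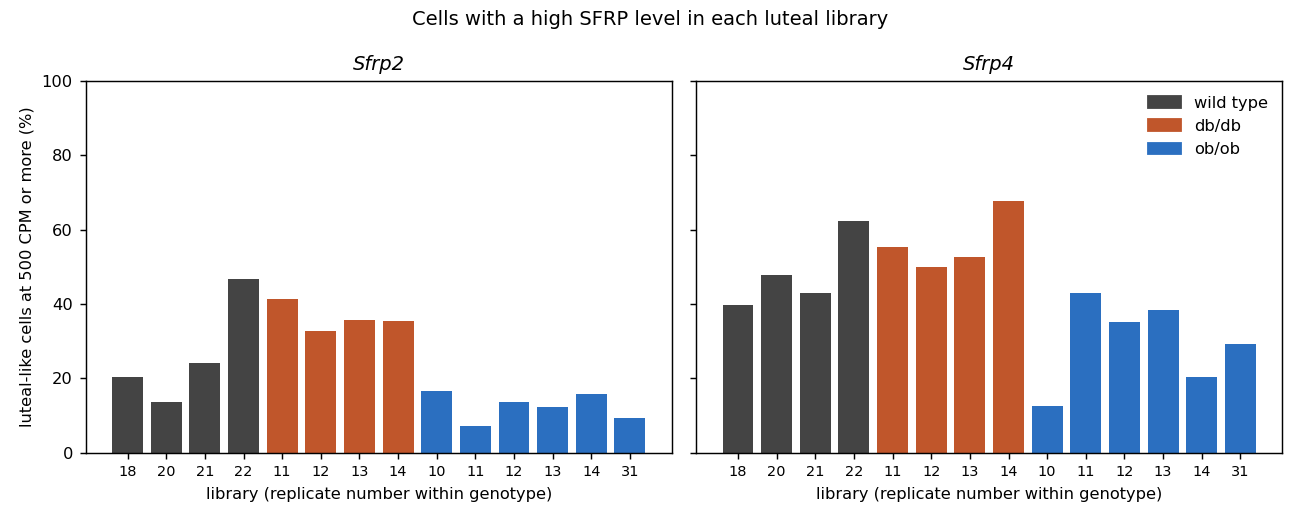
Share of luteal-like cells with at least 500 CPM of Sfrp2 or Sfrp4 in each luteal library, in percent. Bars are libraries by genotype (n = 4, 4 and 6). For Sfrp2 the ob/ob libraries lie between 7.14% and 16.7% and the db/db libraries between 32.6% and 41.3%.

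The ranges of the summed luteal markers overlapped between the genotypes. The summed level of the 9 luteal markers, all detected, was 9942 to 18870 CPM for wild type, 9972 to 15040 for db/db and 8867 to 16200 for ob/ob. The theca list, whose steroid enzymes are shared with luteal cells, summed to 3345 to 4751 CPM for wild type, 4957 to 6505 for db/db and 3837 to 9013 for ob/ob. The wild type and db/db ranges of the theca sum did not overlap. The defining theca members Cyp17a1 and Insl3 were at 0 in every luteal-like group. The endothelial list summed to 3.85 to 11.4 CPM for wild type and 18.3 to 27.5 for db/db, also without overlap, and 0.999 to 21.2 for ob/ob. Stroma markers summed to 61.3 to 138.6 CPM for wild type, 115.6 to 189 for db/db and 99.1 to 259 for ob/ob. Median UMIs per cell overlapped, at 81440 to 177800 for wild type, 107500 to 168900 for db/db and 87210 to 167500 for ob/ob libraries. The part of these lists in the SFRP differences was not tested.

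Without the libraries with under 60% luteal-like cells, the Sfrp2 difference between db/db and ob/ob was 1.34 (adjusted p = 0.233), and without db/db replicate 14 alone, the smallest of them with 31 luteal-like cells, it was 1.47 (adjusted p = 0.0563). Without wild type replicate 22, which had the highest Sfrp2 and Sfrp4, the Sfrp4 difference between ob/ob and wild type was -0.92 (adjusted p = 0.0784) and that of Sfrp2 remained called. With library number as a covariate, which runs with genotype, neither was called (Sfrp2 -2.10, adjusted p = 0.584; Sfrp4 -1.60, adjusted p = 0.654), and in limma on log2(mean CPM of cells + 1) Sfrp2 was at -0.95 (adjusted p = 0.0988). Sfrp4 was also not called with cluster 17 added (-1.08, adjusted p = 0.0563) or over every kept cell of the luteal libraries (-1.11, adjusted p = 0.0526).

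The 250 bases before the start site of Sfrp2 are shown because this gene had the largest difference of the luteal members called. The sequence is from RefSeq, build GRCm38.p6, plus strand, chr3:83766071-83766320, a later build than the mm9 of the counts, and is in lower case throughout because none of the motifs searched was found in it.
Sfrp2: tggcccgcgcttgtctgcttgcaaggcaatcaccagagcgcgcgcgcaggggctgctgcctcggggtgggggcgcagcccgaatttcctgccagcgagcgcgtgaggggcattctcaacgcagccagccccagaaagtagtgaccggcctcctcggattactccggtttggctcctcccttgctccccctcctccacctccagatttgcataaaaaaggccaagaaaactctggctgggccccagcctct
It is 63.6% G and C. The motifs were TCF/LEF (any of CTTTGAA, the variant CTTTGAT, the variant CTTTGTA and the variant CTTTGTT), the letters AAGGTCA bound by the NR5A nuclear receptors, and the GC box GGGCGG, each searched on both strands. Over the 32851 RefSeq promoters of the same length, 14.8% held the first, 4.08% the second and 32.7% the third. Of the 10 members 7 had an entry, and no window of these held the TCF/LEF or NR5A letters, which says nothing of the factors.

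The other members of the luteal-like class did not pass between genotypes. Wnt4, the ligand of the luteal cells, had 38.4, 62.6, 47.1 and 64.9 CPM in wild type and 76.9, 73.7, 92.8 and 133.9 CPM in db/db. The db/db libraries all lay above the wild type libraries, but the difference did not pass (edgeR, adjusted p = 0.347). In ob/ob, Wnt4 ranged from 29.5 to 128.6 CPM, overlapping both. Ctnnb1 was at 88.5 ± 21.96 CPM for wild type (SD, n = 4), 150.7 ± 50.3 for db/db (SD, n = 4) and 97.3 ± 13.4 for ob/ob (SD, n = 6) (adjusted p = 0.196 for db/db against wild type). The receptor gene Fzd1 was at 17.3 CPM in wild type, 18.7 for db/db and 19.1 for ob/ob, and Axin2 at 3.44, 4.49 and 3.97. Wnt6 was at 1.68 CPM in wild type, 1.51 in db/db and 0.0386 in ob/ob (adjusted p = 0.188 for ob/ob against wild type). Wnt5a, Rspo1 and Sfrp1 did not pass the filter. No UMI of Rspo1 was counted in db/db or ob/ob luteal-like cells, which allows up to 0.0566 and 0.0369 CPM, and none of Wnt5a in db/db, which allows up to 0.0566 CPM.

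Wnt6, a ligand that marked 1 granulosa state, was lower in db/db than in wild type granulosa-like cells. Its lowest, median and highest library level was 0, 29.6 and 132.9 CPM in wild type (n = 25), 0, 5.89 and 29.03 in db/db (n = 25) and 0, 10.5 and 39.8 in ob/ob (n = 24). The ranges overlapped, and the median wild type library lay above the highest db/db library. Means were 37.6 ± 41.3 CPM (SD, n = 25), 8.28 ± 8.16 (SD, n = 25) and 12.5 ± 11.3 (SD, n = 24). Wnt6 fell by 2.17 in db/db against wild type (edgeR, SE 0.53, adjusted p = 0.0037), and the ob/ob minus wild type difference of -1.58 did not pass (SE 0.53, adjusted p = 0.0574). The db/db minus ob/ob difference was -0.59 (adjusted p = 0.987). With library number as a covariate, the Wnt6 difference between db/db and wild type was 0.05 (adjusted p = 0.991), a change of sign without a call, and in limma it was -1.12 (adjusted p = 0.121).

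Wnt4 also had lower means in both mutants than in wild type granulosa-like cells, and did not pass. Its lowest, median and highest level was 0, 42.1 and 135.7 CPM for wild type, 0.20, 16.97 and 122.5 for db/db and 0, 13.96 and 103.4 for ob/ob. The fitted difference was -1.22 for db/db minus wild type (SE 0.43, adjusted p = 0.0615) and -1.29 for ob/ob minus wild type (SE 0.43, adjusted p = 0.0602). Thinned to 10000 UMIs, 10.1% of wild type, 3.95% of db/db and 5.04% of ob/ob granulosa-like cells had a Wnt6 UMI, against 0.200% of luteal-like cells; before thinning the shares were 20.1%, 15.5%, 18.2% and 1.15%. Median depth was 92230 UMIs per wild type cell, 73960 per db/db and 71840 per ob/ob granulosa-like cell, and 121300 per luteal-like cell.

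Of the 10 members, 7 passed the filter in granulosa-like cells. In db/db against wild type 1 was lower, where 8.33% of 11004 genes were called. In ob/ob against wild type 0 were called, beside 5.64% of genes, and in db/db against ob/ob 0, beside 0.645%. At an unadjusted p under 0.05 the counts were 3, 3 and 0, in the order of these comparisons, the members being Wnt6, Wnt4 and Fzd1 in the first and second. DESeq2 called 2, 2 and 0 members and limma 0, 1 and 0. The share of all genes called was not counted for these tools, so their counts cannot be set beside it. The median log2 difference of the tested members was -0.91 for db/db minus wild type and -1.21 for ob/ob minus wild type, against 0.04 and 0.05 over all genes tested.

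Wnt6 was concentrated in 1 of the granulosa states. Cluster 7, led by Tgfbr3l, Gatm and Igfbp5, had 76.8 ± 62.5 CPM of Wnt6 for wild type (SD, n = 18), 109.6 ± 124.4 for db/db (SD, n = 4) and 123.4 for ob/ob (n = 6), where the SD was as large as the mean. It held 34.3% of the wild type granulosa-like cells but 4.0% of the db/db and 5.63% of the ob/ob cells. Clusters 5 and 10 went the other way, at 3.01% and 0.97% of wild type, 15.2% and 16.2% of db/db and 19.5% and 9.27% of ob/ob. Their next marker list was smooth muscle and pericyte (relative level 0.365 and 0.40, granulosa 0.559 and 0.668). Clustered with the WNT genes, clusters 5 and 8, with Col11a1 among their leading genes, had that list first and took no name. The part of this in the class comparisons was not tested. The mitotic cluster 6, led by Ube2c, Cdc20 and Aurkb, had a mean of 23 CPM for wild type, 4.63 for db/db and 7.60 for ob/ob, and the db/db minus wild type difference there did not pass (adjusted p = 0.314). Cluster 2, led by Hsd17b1 and Inhba, had 13.1, 10.2 and 6.7 CPM. In cluster 7 itself 0 members were called in db/db against wild type (0.207% of 9183 genes), ob/ob against wild type (0.621%) or db/db against ob/ob (0.0436%), with 0, 0 and 1 at an unadjusted p under 0.05 and 0 by DESeq2. Wnt4 in cluster 7 was at 87.9 ± 70.6, 45.1 ± 51.3 and 32.8 ± 38.6 CPM, and in cluster 10, led by Tex15, Adamts5 and Foxo1, at 39.8 CPM for db/db and 50.1 for ob/ob. The cluster with the most Wnt6 thus held few mutant cells, and the mutant means of Wnt6 over its libraries were above the wild type mean. Pooled over all its cells instead, Wnt6 in cluster 7 was at 85.99 CPM for wild type (353 cells), 62.4 for db/db (67 cells) and 88.1 for ob/ob (71 cells). The order of wild type and db/db thus differed between the pooled values and the library means. The library means cover only libraries with at least 5 cells of the cluster, which held 340, 34 and 41 cells. The pooled values are also not TMM-scaled. Cluster shares are shares of hand-picked cells and were not tested.

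**Figure D4:**
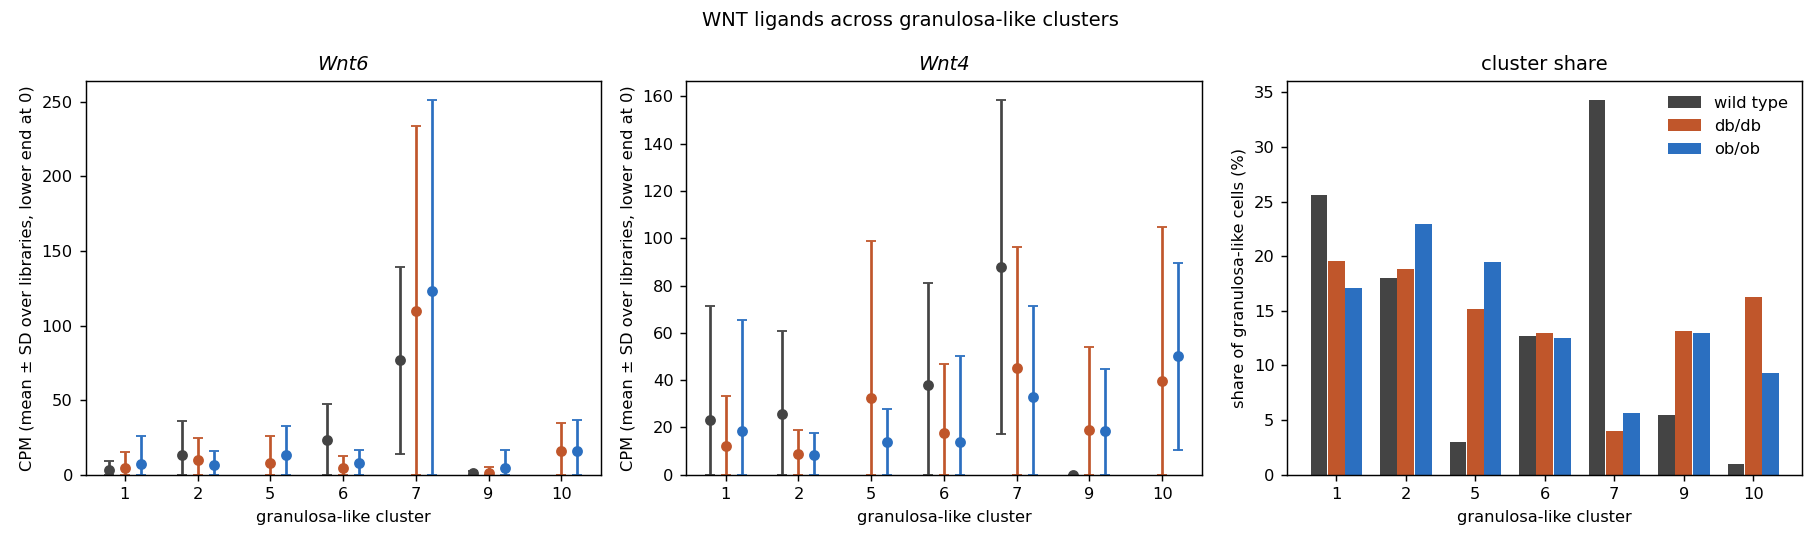
Wnt6 and Wnt4 by granulosa-like cluster and genotype, as mean ± SD of library CPM for groups of at least 3 libraries, with each cluster's share of the granulosa-like cells in percent. Wnt6 is highest in cluster 7 in all genotypes, and that cluster holds 34.3% of wild type cells against 4.0% of db/db and 5.63% of ob/ob cells.

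Marker sums of other cell types moved with genotype in the granulosa-like class. The median summed level of the stroma list was 366 CPM for wild type, 616 for db/db and 611 for ob/ob, and that of the surface epithelium list, 9 of its 10 genes being in the table, was 255, 138.7 and 176 CPM. The smooth muscle and pericyte list had medians of 59.9, 146.5 and 194.8 CPM, the endothelial list 33.0, 54.6 and 73.6 CPM and the macrophage list 7.49, 14.8 and 27.4 CPM, in the same order, with ranges that overlapped. The 15 granulosa markers, all detected, summed to medians of 15940, 17880 and 18120 CPM. Surface epithelium-like cells, from ob/ob mice alone, had the highest class mean of Wnt6, at 47.4 CPM, carried by libraries at 121.6 and 140.5 CPM. Their median was 10.2 CPM, against granulosa-like medians of 10.5 CPM for ob/ob, 5.89 for db/db and 29.6 for wild type. That class mean also lay below the cluster 7 means of every genotype given above. In granulosa-like cells the median of the surface epithelium list, like that of Wnt6, was lower in both mutants. The part of these lists in the Wnt6 result was not tested.

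The bases before the start sites of Wnt6 and Wnt4 are shown because these 2 ligands were both lower on average in the mutant granulosa-like cells. Both are from RefSeq, build GRCm38.p6, plus strand, at chr1:74771642-74771891 for Wnt6 and chr4:137277385-137277634 for Wnt4, with GC box letters (GGGCGG, or the same letters on the other strand) in capitals.
Wnt6: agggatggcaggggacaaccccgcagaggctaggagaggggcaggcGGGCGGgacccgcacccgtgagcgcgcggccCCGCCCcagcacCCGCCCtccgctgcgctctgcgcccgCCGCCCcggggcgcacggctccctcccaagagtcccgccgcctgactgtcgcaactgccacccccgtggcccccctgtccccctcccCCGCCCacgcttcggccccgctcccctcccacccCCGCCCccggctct
Wnt4: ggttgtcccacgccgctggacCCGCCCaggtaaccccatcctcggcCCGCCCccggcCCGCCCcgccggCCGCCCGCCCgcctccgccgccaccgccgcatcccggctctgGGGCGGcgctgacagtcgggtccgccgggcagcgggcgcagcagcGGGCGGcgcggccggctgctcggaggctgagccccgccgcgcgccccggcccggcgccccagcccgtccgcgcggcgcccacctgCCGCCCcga
The Wnt6 window held 6 such matches and was 79.6% G and C. The Wnt4 window held 8, of which a pair overlapped by shared bases, and was 85.2% G and C. Of the other members, Ctnnb1 had 3 and 2 matches in its 2 windows, Axin2 had 2, and Sfrp2, Rspo1 and Fzd1 had 0. The windows fall in about the same order by match count and by G and C content, and a match is a description of letters, not of binding.

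The remaining members were low or even across granulosa-like cells. Ctnnb1 was at 112.1 ± 55.8 CPM for wild type, 111.3 ± 34.6 for db/db and 119.1 ± 32.8 for ob/ob (SD, adjusted p of 0.984 and 0.817 against wild type). Its feedback target Axin2 was at 3.80, 4.42 and 2.82 CPM, and Sfrp1 at 4.41, 6.38 and 5.81. Sfrp4 was at 10.6 ± 17.9 CPM in wild type, where its highest library had 82.9, against 5.58 in db/db and 4.54 in ob/ob (adjusted p = 0.483 and 0.342). Fzd1 was at 6.84, 1.77 and 1.87 CPM, the wild type mean resting on a library at 103.9 CPM. Wnt5a (0.28, 3.09 and 2.64 CPM), Rspo1 (0.37, 1.67 and 0.86) and Sfrp2 (0.08, 0.49 and 0.39) did not pass the filter. With no filter on low counts, Wnt5a was called higher in db/db (3.37, adjusted p = 0.0022) and in ob/ob (3.15, adjusted p = 0.0047) than in wild type.

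In stroma-like cells none of the 7 members tested was called. This was 0 beside 0.436% of 9644 genes in db/db against wild type, 0 beside 0.975% in ob/ob against wild type, and 0 beside 0.684% in db/db against ob/ob. At an unadjusted p under 0.05, Sfrp4 differed in db/db (p = 0.011) and in ob/ob (p = 0.011), and Wnt6 in db/db (p = 0.0418), each against wild type in the edgeR fit, and DESeq2 and limma called 0 members. Sfrp1, whose product binds WNT ligands, was at 28.9 ± 31.4 CPM in wild type, 20.0 ± 35.6 in db/db and 33.9 ± 40.2 in ob/ob (SD). Wnt5a, the ligand best known for β-catenin-independent signalling, was at 8.81 ± 10.7, 18.2 ± 27.8 and 23.9 ± 41.2 CPM. Its medians ran in the opposite order, at 6.57, 0.82 and 0 CPM. Sfrp1 and Wnt5a both had their highest class mean here, with a spread between libraries as large as the mean. Sfrp4 was at 13.2 ± 21.8 CPM in wild type, 0.27 ± 0.67 for db/db and 1.5 ± 2.10 for ob/ob (adjusted p = 0.168 and 0.202 against wild type), and Wnt6 at 9.51, 0.96 and 3.86. Ctnnb1 was at medians of 119.3, 72.7 and 120.3 CPM, Wnt4 at medians of 9.64, 1.24 and 6.68, and Fzd1 at medians of 7.22, 0.60 and 0. Sfrp2 had no UMI in db/db stroma-like cells, which allows up to 0.55 CPM over the 6 libraries. The stroma marker list itself summed to a median of 7088 CPM in wild type, 3554 for db/db and 5286 for ob/ob, and only 50 db/db cells entered.

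Rspo1 was the member that set the surface epithelium-like cells apart in level. These cells, from 6 ob/ob libraries of 8 to 30 cells each, had 5.17, 18.9, 36.1 and 72.7 CPM of Rspo1 in 4 of them, and the highest had 133.6 CPM. Values ranged widely, with 2 libraries above 120 CPM and 1 near 5 CPM. Of all cells of the class, 22.95% had a UMI of Rspo1, against 3.30% of granulosa-like, 1.31% of stroma-like and 0.286% of luteal-like cells. Thinned to 10000 UMIs these shares were 16.8%, 0.641%, 0% and 0.10%. The ligands were as uneven: Wnt6 was at 1.72, 121.6, 140.5, 3.61, 0 and 16.8 CPM and Wnt4 at 1.72, 72.7, 0.86, 23.5, 227 and 12.5 CPM, so a library high in one was not always high in the other. Axin2 was at 5.15, 2.64, 19.8, 1.81, 114.3 and 1.33 CPM, and its highest library was also the highest in Wnt4 and Rspo1. Ctnnb1 ranged from 32.7 to 175.9 CPM and Sfrp1 was at 6.32 ± 3.96 CPM (SD, n = 6). Markers of the surface epithelium summed to 4755 to 16380 CPM, and the granulosa list also reached 4860 to 18350 CPM in these sums, so the class is not free of granulosa transcripts. No genotype comparison was possible in this class.

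**Figure D5:**
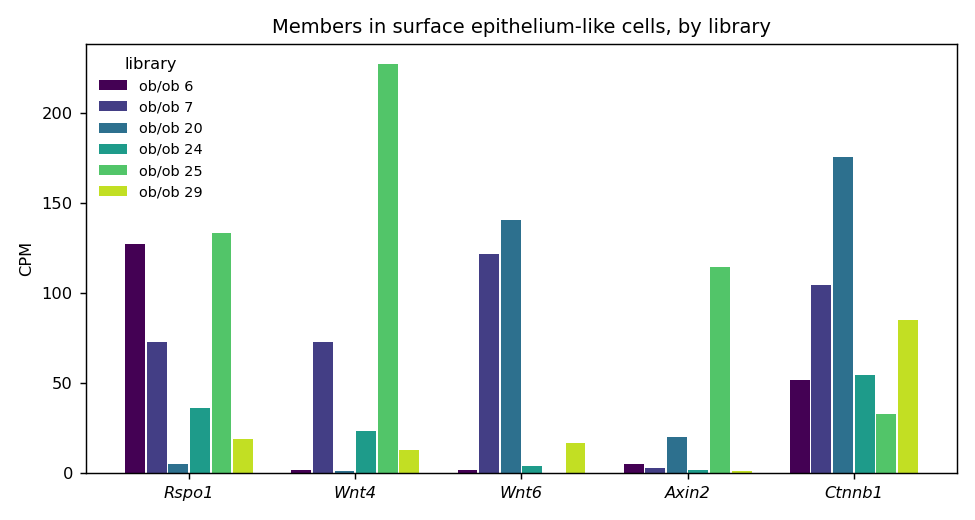
Rspo1, Wnt4, Wnt6, Axin2 and Ctnnb1 in the surface epithelium-like cells of 6 ob/ob libraries, in CPM, with a bar for each library. Rspo1 spans 5.17 to 133.6 CPM, and Wnt4 and Axin2 each have 1 library far above the rest, at 227 and 114.3 CPM.

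Among the other 77 genes of a WNT list, a gene of receptor turnover had the smallest adjusted p. Znrf3 encodes a membrane ubiquitin ligase that removes Frizzled receptors and is itself removed by R-spondins. In granulosa-like cells its lowest, median and highest level was 76.3, 168 and 361 CPM in wild type, 1.96, 50.8 and 228 in db/db and 28.4, 121.3 and 392 in ob/ob. The median db/db library lay below the lowest wild type library. Znrf3 fell by 1.54 in db/db against wild type (edgeR, SE 0.25, adjusted p = 2.6e-06), and was lower in db/db than in ob/ob by a log2 difference of -1.13 (SE 0.25, adjusted p = 0.0035), whereas ob/ob minus wild type was -0.42 (adjusted p = 0.359). With library number as a covariate these 2 differences of Znrf3 remained called, at -1.81 (adjusted p = 0.0226) and -1.12 (adjusted p = 0.0043). Split by library number, the difference of Znrf3 between db/db and ob/ob was -1.66 in the earlier mutant libraries (adjusted p = 0.473) and -0.83 in the later ones (adjusted p = 0.105). Within single granulosa-like clusters, Znrf3 fell by 1.86 in db/db against wild type in cluster 6 (adjusted p = 0.0117; 0.559% of 8947 genes called). It was lower in db/db than in ob/ob in cluster 10, at -1.65 (adjusted p = 0.018; 0.392% of 7913 genes called). In cluster 1, the one with the most cells, neither comparison passed (-2.23, adjusted p = 0.349, and -1.84, adjusted p = 0.91), beside 0.355% and 0.224% of 5353 genes called, and 12 of the 77 genes were tested and the median cell had 2037 genes. In luteal-like cells Znrf3 was at 60.9 CPM for wild type, 25.03 for db/db and 85.1 for ob/ob and did not pass (adjusted p = 0.201 for db/db against ob/ob).

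Of the 77 genes, 39 were tested in granulosa-like cells. In db/db against wild type 1 rose and 1 fell, where 8.33% of 11004 genes were called. In ob/ob against wild type 1 rose and 1 fell, beside 5.64% of genes. In db/db against ob/ob 0 rose and 1 fell, beside 0.645%. Csnk1a1, a kinase of the β-catenin destruction complex, was the gene that fell in ob/ob, from 254 to 193 CPM (-0.40, SE 0.12, adjusted p = 0.0407), and lost its call under 7 of the alternatives. The genes that rose were Frzb, an SFRP family antagonist, from 0.59 to 5.37 CPM in db/db (3.40, SE 0.88, adjusted p = 0.0064), and Rspo2, from 0.83 to 4.61 CPM in ob/ob (2.48, SE 0.73, adjusted p = 0.0252). Both lie under the 20 CPM set for named genes and were singled out after their values were seen, and with library number as a covariate neither was called (adjusted p = 0.487 for Frzb and 0.793 for Rspo2). With at least 10 cells per library Rspo2 was at 1.58 (adjusted p = 0.169). In luteal-like cells 40 of the 77 genes and in stroma-like cells 32 were tested, and 0 were called in the 3 comparisons of each. In the same order of comparisons, 0.86%, 3.15% and 0.487% of all genes tested were called in luteal-like cells. In stroma-like cells these shares were 0.436%, 0.975% and 0.684%.

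Within single clusters, Znrf3 aside, 5 calls fell on other genes of the list, each singled out after its value was seen. In luteal-like cluster 3, 2 of the 39 genes tested rose in ob/ob against wild type (1.62% of 11217 genes called). Dkk3, a secreted protein of the Dickkopf family, had 0, 0.419, 0.743 and 0.111 CPM in the wild type libraries and 3.81 to 25.4 CPM in the 6 ob/ob libraries, with no overlap. Its fitted difference was 5.40 (SE 1.22, adjusted p = 0.024), opposite in direction to those of Sfrp2 and Sfrp4, and without wild type replicate 18 or 22 it was not called (4.98, adjusted p = 0.0576, and 5.08, adjusted p = 0.0602). Over the whole luteal-like class Dkk3 was at 0.76 CPM for wild type, 8.45 for db/db and 12.2 for ob/ob, and the ob/ob minus wild type difference of 3.97 did not pass (adjusted p = 0.0624). DESeq2 and limma called it there (adjusted p = 0.0011 and 0.0207). Porcn, the enzyme that attaches the lipid to WNT proteins, was at 1.01 CPM in wild type and 20.3 in ob/ob in cluster 3 (4.33, SE 1.07, adjusted p = 0.0412). It lost that call without any 1 of the 4 wild type libraries or without ob/ob replicate 10 or 12 (adjusted p from 0.0772 to 0.111). The db/db libraries of cluster 3 had 9.12, 21.3, 26.7 and 1.06 CPM of Porcn. In db/db against wild type 0 of the 39 genes were called there, beside 0.642% of 11217 genes.

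The other calls were in granulosa-like clusters. Tcf7l2, a TCF/LEF factor, was higher in ob/ob than in wild type in cluster 7, at means of 2802 and 1092 CPM (1.35, SE 0.28, adjusted p = 0.007; 0.621% of 9183 genes called). An ob/ob library at 8541 CPM carried much of this, and without it, replicate 30, the difference was 0.57 (adjusted p = 0.404). Without ob/ob replicate 9 Tcf7l2 was at 1.16 (adjusted p = 0.0524), and with stricter cell limits at 0.37 (adjusted p = 0.589). The other ob/ob libraries had 2439, 1007, 2110, 1878 and 836 CPM. The db/db libraries had 1704, 1837, 1899 and 1807 CPM, above the wild type mean and inside the wild type range of 309 to 2774 CPM. In db/db against wild type 0 genes of the list were called there, beside 0.207% of 9183 genes. In cluster 5, where 2.24% of 10722 genes were called in db/db against ob/ob, Frzb was higher in db/db (10.5 against 0.46 CPM, adjusted p = 0.0427). Its db/db mean rested on libraries at 92.5 and 49.1 CPM, with the others at 10.8 or less. The receptor gene Fzd2 was lower in db/db there (1.64 against 26.1 CPM, adjusted p = 0.0367), and DESeq2 did not call Fzd2 (adjusted p = 0.315). The ob/ob mean of Fzd2 rested on libraries at 290.7 CPM (58 UMIs, 7 cells) and 69.3 CPM, with the others at 8.3 or less.

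Genes outside the WNT list with the most similar pattern to each member were found by Pearson correlation of log2(CPM + 1) over the class-by-library sums of the 4 classes, among the 5715 genes whose mean reached 20 CPM. These sums share libraries and classes, so the coefficients are descriptions. Sfrp2 was most like Pdcd1 (r = 0.934), Asgr1 (0.899) and Spp1 (0.88). Sfrp4 was most like Akr1c18 (0.843), the enzyme that breaks down progesterone and one of the luteal markers, then Pdcd1 (0.816) and Spp1 (0.794). Rspo1 was most like the surface epithelium markers Msln (0.744), Upk1b (0.713) and Krt19 (0.619), and Wnt6 like Tmem184a (0.622), Gstm6 (0.616) and Tgfbr3l (0.561). Sfrp1 was most like Cygb (0.641), Tmem100 (0.626) and Steap4 (0.621), Wnt5a like Lrrc17 (0.511), Hhip (0.506) and Nid1 (0.505), and Fzd1 like Lipg (0.518), Rnf125 (0.517) and Ecm1 (0.496). For Wnt4 the most alike were Nrn1 (0.549), Cited4 (0.545) and Ier3 (0.519), for Ctnnb1 Psma4 (0.444), Zbed3 (0.40) and Ccng2 (0.387), and for Axin2 Lsr (0.47), Krt8 (0.399) and Ppat (0.371).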

How the data were processed

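Unique molecular identifier (UMI) counts per gene and cell were deposited by the authors as 1 table of raw counts with 13254 cell columns. The build mm9 is given per the submitters' processing notes, sequencing was on a HiSeq X-Ten per the labels' protocols, and for aligner, counter and annotation the sources used here give no name. The 8465 columns of the 92 somatic libraries were used, each matched to its library by title; 4789 columns of 61 other libraries were not analysed here. A deposited cell annotation was not used here, so clusters were named anew and may differ from the study's. Spike-in rows, 26.7% of the UMIs of the kept cells, were left out of library sizes and tests.

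The cells kept had 1000 or more genes and 3000 or more UMIs, and no doublet caller was run on these hand-picked cells. Clustering used 2000 variable genes without the WNT list, 30 principal components, 20 neighbours and Leiden at resolution 1.5 (scikit-learn 1.9.0, igraph 0.11.9). A cluster took the name of the marker list with the highest relative level if it led by 0.1 and 3 markers were detected. That margin was set after the clusters were seen and before genotypes were compared. Names were withheld where leading genes held markers of other lists or RNAs without poly(A), cells came mostly from few libraries, or depth was low. Clusters 8, 12, 19 and 21, led by the granulosa list, stayed unnamed by these limits. So did cluster 17 (luteal list 0.789, next list 0.506), with 89.08% of its cells from db/db replicate 14 and wild type replicate 20. Counts were summed per library and class (at least 5 cells), and classes with at least 3 libraries per genotype were tested with edgeR 4.0.16 (TMM, filterByExpr, quasi-likelihood test, Benjamini-Hochberg over all genes tested), the 3 genotypes sharing 1 fit. Alternatives used DESeq2 1.42.0 and limma 3.58.1. The scripts were tested on simulated data. Floors for a gene with no UMI are 3 counts over the group and cover counting error only. Replicate numbers follow accession order and pair nothing.

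The text names all 10 members, up to 6 called genes of the WNT list per comparison with a mean of at least 20 CPM, and the 3 genes most alike each member. The members and lists were chosen with earlier results of these data known.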

Additional observations from a re-analysis of the deposited data

Results flagged for a closer look

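Of 46 groups of 4 to 10 libraries, 16 had a library standing apart from the rest; chance gives about 1 in 20 where values are normally distributed, a rate that was not tested here and does not apply to groups mostly at 0. In luteal-like cells these were Sfrp1 at 0.117 CPM in a db/db and 3.71 CPM (48 UMIs) in an ob/ob library, Wnt5a at 0.268 CPM in an ob/ob and 0.107 CPM in a wild type library, and Wnt6 at 0.232 CPM in an ob/ob library, the others of each group being at 0. Wnt6 stood at 6.67 CPM in 1 wild type luteal library, with the next at 0.0534 CPM.

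In db/db stroma-like cells, with 5 to 12 cells per library, single libraries stood apart for 5 members. They were Ctnnb1 at 208.5 CPM (next 83.03), Fzd1 at 60.01 (next 15.6), Sfrp1 at 91.4 (next 16.4), Wnt4 at 45.3 (next 4.13) and Sfrp4 at 1.64 (others 0), the Fzd1 and Sfrp4 values being from the same library. In ob/ob surface epithelium-like cells, 1 library stood apart for Axin2 at 114.3 CPM (next 19.8) and Wnt4 at 227 CPM (next 72.7). Fzd1 at 21.6 CPM (next 3.61), Wnt5a at 2.64 CPM (next 0.862) and Sfrp2 at 0.862 CPM (others 0) also stood apart there.

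The effects of db/db and ob/ob on luteal Sfrp2, both taken against the same wild type libraries, differed by 1.72 on the log2 scale. The wild type libraries cancel in this difference, which is the db/db against ob/ob test of edgeR (adjusted p = 0.0064).

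Cells of cluster 17, which took no class name, also held members at high levels. Wnt4 was at 340 CPM over 60 cells of a db/db library and 218 CPM over 46 cells of a wild type library, against 33.1 CPM over 5 cells of another wild type library. Sfrp4 there was at 1136, 916 and 1302 CPM in the same order.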

How the results depend on the processing

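Counts of members called depended on the tool and on library number. The share of all genes called was counted for the main fits only. Counts under the alternatives can therefore not be set beside it, and are not read as results about the members. In granulosa-like cells, db/db against wild type, where 1 was called, DESeq2 called 2, limma 0, the fit with no filter 3, the clustering with WNT genes 2, the largest cluster alone 0 and library number as a covariate 0. In ob/ob against wild type, where 0 were called, DESeq2 called 2, limma 1, the fit with no filter 3, stricter cell limits 1 and, an alternative added after seeing the data, the fit without cluster 1 called 2. In luteal-like cells, ob/ob against wild type (2 called), limma called 1 and the covariate 0, and the added fits with cluster 17 and with every kept cell called 1 each; leaving out a library gave 1 to 2. In db/db against ob/ob (1 called), limma and the fit with no filter called 2 each, leaving out a library gave 0 to 1, and the added fit without libraries under 60% luteal-like cells called 0. In stroma-like cells the covariate gave 1 call in db/db against wild type (0 otherwise). Within clusters, DESeq2 made 7 calls against 4. Wnt6 in granulosa-like cells reversed with the covariate, to 0.047 (adjusted p = 0.991). The covariate runs with genotype and strain, which leaves little to separate them; for the other changes the cause was not tested.

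The fall of Sfrp2 in ob/ob luteal-like cells against wild type kept its direction in all alternatives run (-2.20 to -0.95), and lost its call with limma (-0.95, adjusted p = 0.0988) and the covariate (-2.10, adjusted p = 0.584). That of Sfrp4 kept its direction (-1.60 to -0.92) and lost its call with the covariate (adjusted p = 0.654), with cluster 17 added (adjusted p = 0.0563), over every kept cell of the luteal libraries (adjusted p = 0.0526) and without wild type replicate 22 (adjusted p = 0.0784). Sign changes of single members in the other alternatives had neither value called. No paired analysis was possible because the replicate numbers only follow the order of the accessions and pair no libraries. No comparison of luteal-like cells within blocks of library numbers could be made, since the earlier block held no db/db and the later one only 1 ob/ob luteal library. Surface epithelium-like cells reached 5 per library in ob/ob alone. Stroma-like db/db sums of 5 to 12 cells per library limit what could be detected there.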
